A study of Mus musculus with 30 samples.

Results

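Integrins are the receptors by which cells hold and read the extracellular matrix, and laminins are the cross-shaped glycoproteins that organise the basement membrane, the thin sheet under every epithelium. An integrin pairs an alpha with a beta subunit, and the pair sets the ligand: some bind laminins, some collagens, some the RGD motif of fibronectin and vitronectin. A laminin joins an alpha, a beta and a gamma chain, and the chains change as tissues mature. In the developing nose, laminin-rich matrix lies along the route of the olfactory axons and of the migrating neurons that leave the placode.

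The genes described here are the integrins and laminins measured in developing olfactory tissue of mouse embryos. They were chosen by symbol alone: every transcript cluster of the array with a single symbol that begins with Itga or Itgb (without the Itgb1bp genes) or with Lama, Lamb or Lamc and a number. This gave 30 of 14860 genes, with 1 cluster each, among 23339 clusters. They are 13 integrin alpha chains, 8 integrin beta chains, 7 laminin chains and 2 genes that share the name but are no receptor chain: Itgbl1, which encodes a secreted protein built from integrin beta-like repeats, and Itgb3bp, which encodes a nuclear and centromere protein named for its binding to a beta chain. Members of the families whose clusters carry several symbols, among them Itga1 and Itga4, were not analysed here.

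Tissue was dissected from vibratome sections and hybridized on 30 arrays of the Affymetrix Mouse Exon 1.0 ST type. A time course used 24 of them, all of wild type embryos, 3 for each of 8 groups: an epithelial (EPI) and an adjacent mesenchymal (MES) fraction of 4 tissues. These were the placode that gives rise to the olfactory system (OPL, E11.5), the olfactory epithelium at 2 ages (OE, E12.5 and E14.5) and the vomeronasal organ (VNO, E14.5). The other 6 arrays compared nasal epithelium of wild type (WT) and Dlx5-null embryos at E12.5, 3 of each, without a fraction. All embryos were F1 animals from crossing C57Black6 with DBA. The labels name the E12.5 tissue, of all its groups, as placode. The null allele is Dlx5 lacZ, a lacZ insertion in the homeobox gene that every cell of the embryo carries, and the mutant embryos came from heterozygous parents while the WT came from WT parents. The dissection of null embryos also took in respiratory epithelium, so genotype and dissection differ together. Each array holds the RNA of a pool of at least 4 individuals, and nothing in the sources used here says whether pools shared litters, so a p-value speaks of the spread among these pools only. In such bulk tissue, fewer cells of a type and less RNA per cell cannot be told apart.

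Levels are log2 values, brought to a common distribution over the 24 arrays of the time course and, apart from them, over the 6 Dlx5 arrays, so levels of the 2 experiments are not set against each other. Pearson's r between replicates, across clusters, lay between 0.961 and 0.990, with the lowest in the EPI OE at E14.5. A gene was called when its adjusted p in limma did not exceed 0.05 and its log2 difference was 0.9 or more in size. The fraction labels were checked on markers: 7, 8, 4 and 2 of 11 epithelium markers were called higher in EPI than in MES, in the order OPL, OE E12.5, OE E14.5 and VNO, and 4, 3, 2 and 0 of 11 mesenchyme markers were called lower. The fractions thus parted on fewest of these markers in the VNO, where 3 of 9 neuron markers were called lower and 7 of 9 skeletal muscle markers higher in the EPI fraction. There 1 mesenchyme marker was called higher in EPI. The mesenchyme markers summed, on the log2 scale, to 14.60 to 14.68 in EPI and 14.63 to 14.66 in MES. Of 8 markers of basal stratified epithelium, 0, 0, 4 and 6 were called higher in EPI and 0, 2, 0 and 0 lower, in the same order.

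Over the 12 pairwise comparisons of the time course, 13 of the 30 genes (43.3%) were called at least once, against 30.9% of the 14804 genes tested. The called genes were the integrin chains Itga2, Itga7, Itga9, Itga11, Itgb4, Itgb5 and Itgb6, the laminin chains Lama1, Lama2, Lama4 and Lamb3, and Itgbl1 and Itgb3bp. On the arrays of the groups behind each of these calls, the values did not overlap. The other 17 genes were called in no comparison. Rank Products, the test of the study, kept 12 of the limma calls and lost 25: it kept those of Itgbl1 at E14.5 except between the VNO fractions, of Itgb6 and Itga11 between fractions at E12.5, of Itgb6 at E11.5, of Lamb3 in the EPI VNO, of Lama1 in the MES OE, of Itgb6 in the MES VNO, and of Itga11 between the MES fractions at E14.5. The map of levels by array shows that Itgbl1, Itgb6, Itga11 and Lamb3 carried the widest spans.

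**Figure D1:**
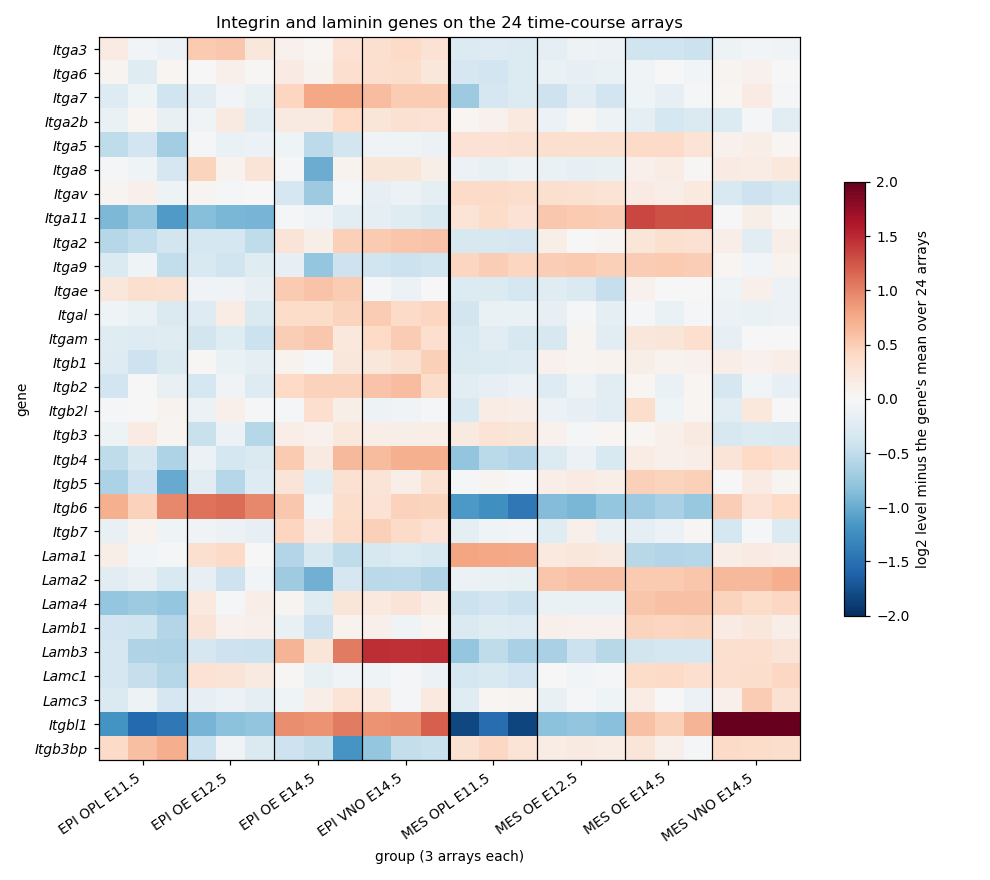
Each row is 1 of the 30 genes and each column 1 of the 24 time-course arrays, grouped by fraction, tissue and age (EPI left of the thick line, MES right of it). Colour gives the log2 level minus the mean of the gene over the 24 arrays, from blue (lower) to red (higher), with values beyond 2 in either direction shown as 2. Itgb6 is red in EPI and blue in MES at E11.5 and E12.5, and Itga11 runs the other way. At E14.5 Itgbl1 turns red in all groups and Lamb3 in EPI and the MES VNO, not in the MES OE.

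Because these 4 genes carry most of the results, the bases before their start sites are shown. They come from the RefSeq promoter table (build GRCm38.p6), which held 19 of the 30 genes, and cover the 250 bases before the start of the transcript, 5′ to 3′ on the strand of the gene. Where a gene had several starts, the most upstream was used, as for Itgb6 and Lamb3 with 2 each. Figures over all promoters count every start. Capitals mark CpG pairs. Itgb6 at chr2:60722604-60722853 (minus strand) held 11 CpG pairs, Itga11 at chr9:62677605-62677854 (plus strand) held 12, Lamb3 at chr1:193301744-193301993 (plus strand) held 2 and Itgbl1 at chr14:123659890-123660139 (plus strand) held 5, against a median of 6 over 32851 promoters.
Itgb6: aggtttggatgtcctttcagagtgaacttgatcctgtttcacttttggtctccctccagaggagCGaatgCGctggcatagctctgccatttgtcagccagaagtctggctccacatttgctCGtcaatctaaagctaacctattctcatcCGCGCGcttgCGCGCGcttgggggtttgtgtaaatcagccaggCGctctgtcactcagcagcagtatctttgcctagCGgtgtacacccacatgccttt
Itga11: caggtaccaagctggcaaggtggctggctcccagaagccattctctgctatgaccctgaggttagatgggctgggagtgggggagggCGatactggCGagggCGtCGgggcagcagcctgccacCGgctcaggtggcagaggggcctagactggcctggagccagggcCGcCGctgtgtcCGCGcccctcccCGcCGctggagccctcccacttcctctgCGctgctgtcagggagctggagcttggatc
Lamb3: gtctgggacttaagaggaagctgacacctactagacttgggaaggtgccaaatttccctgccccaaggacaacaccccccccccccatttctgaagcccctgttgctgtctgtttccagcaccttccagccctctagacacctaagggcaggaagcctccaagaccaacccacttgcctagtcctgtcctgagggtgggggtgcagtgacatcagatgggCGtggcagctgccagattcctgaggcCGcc
Itgbl1: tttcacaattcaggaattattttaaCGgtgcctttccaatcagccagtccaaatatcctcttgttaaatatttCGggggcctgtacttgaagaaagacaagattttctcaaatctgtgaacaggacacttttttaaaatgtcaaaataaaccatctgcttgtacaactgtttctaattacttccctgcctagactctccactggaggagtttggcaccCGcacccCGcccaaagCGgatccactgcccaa

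Searched on both strands, the GC box (GGGCGG) lay in this window of 7 of the 19 genes (36.8%), against 32.7% of all promoters. Of the 4 genes printed, it lay before Itgbl1, at base -26 on the other strand. The AP-1 site (TGANTCA), the TATA box (TATAAA) and the Runx site (TGTGGT), which lie in 6.7%, 12.4% and 14.0% of all promoters, were in the window of 0 of the 19. These are matches of letters in 1 window a gene and say nothing on binding.

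At E11.5 and E12.5 the fractions differed in 2 genes, a beta chain on the epithelial side and a collagen receptor on the mesenchymal side. Itgb6, whose product pairs with Itgav into an epithelial receptor known for activating latent TGF-beta, read 6.88, 6.64 and 7.12 on the EPI OPL arrays and 5.02, 4.94 and 4.75 on the MES OPL arrays. At E12.5 it read 7.25, 7.29 and 7.13 in EPI and 5.30, 5.25 and 5.39 in MES. The lowest EPI array lay above the highest MES array at both ages, and the log2 difference in limma was 1.98 (SE 0.15, adjusted p = 0.00198) at E11.5 and 1.91 (SE 0.08, adjusted p = 0.000634) at E12.5, a 3.93-fold and a 3.76-fold difference.

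Itga11, the alpha chain of a receptor for fibrillar collagen found on fibroblasts, ran the other way. Its levels were 6.45, 6.59 and 6.22 in the EPI OPL and 7.63, 7.71 and 7.63 in the MES OPL. At E12.5 they were 6.50, 6.43 and 6.43 in EPI and 7.89, 7.88 and 7.85 in MES. Again the fractions did not overlap at either age, with a log2 difference of -1.24 (SE 0.11, adjusted p = 0.00263) and -1.42 (SE 0.06, adjusted p = 0.000634).

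Itgb6 was thus the 1 gene of the 30 called higher in EPI and Itga11 the 1 called lower at each of these ages. Over all genes tested, 3.93% were called higher and 1.19% lower at E11.5, and 3.46% and 2.09% at E12.5. On the values as deposited, the median of all clusters was -0.66 at E11.5 and -0.18 at E12.5 (EPI minus MES). The split was then 1 higher and 7 lower at E11.5 and 1 and 3 at E12.5, the latter also after centring on array medians. Over the 14804 genes tested it was 119 and 3795 at E11.5 and 363 and 518 at E12.5, or 524 and 341 after centring. The partners of these chains moved less: Itgav, which pairs with Itgb6, differed by -0.36 (SE 0.08, adjusted p = 0.0267) at E11.5, and Itgb1, the common beta chain that pairs with Itga11, by -0.05 (SE 0.08, adjusted p = 0.662). Itga5, the fibronectin receptor, came nearest to a call among the rest at E11.5, at -0.82 (SE 0.10, adjusted p = 0.00529).

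**Figure D2:**
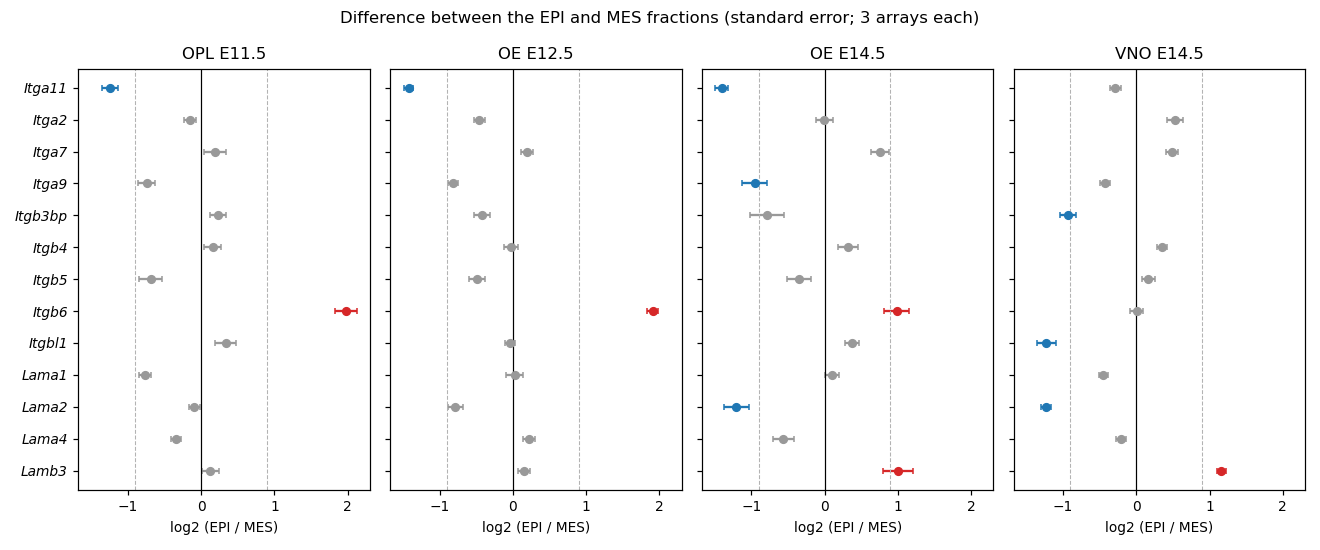
Points give the log2 difference between the EPI and the MES arrays (horizontal axis) for the 13 called genes at each tissue and age, with bars for the standard error of the limma fit (3 arrays a group); red is called higher in EPI, blue lower, grey not called, and dashed lines mark 0.9. Itgb6 falls from 1.98 at the OPL to 0.01 at the VNO, while Lamb3 goes from 0.12 to 1.16 and Lama2 from -0.09 to -1.23.

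At E14.5 laminin chains were among the genes that parted the fractions. In the OE, Lamb3 and Itgb6 were higher and Itga11, Lama2 and Itga9 lower in EPI (2 of 30 higher and 3 lower, against 6.50% and 1.39% of all genes). In the VNO, Lamb3 was higher and Itgbl1, Lama2 and Itgb3bp lower (1 higher and 3 lower, against 6.72% and 2.02%). Itgbl1 stood there at -1.23 (SE 0.13, adjusted p = 0.00131) and Itgb3bp at -0.93 (SE 0.11, adjusted p = 0.00166), the latter call lost without EPI VNO replicate 1 (-0.83). The median of all genes tested was itself 0.22 above 0 in the OE and 0.17 in the VNO, while that of the 30 genes was 0.07 and 0.09.

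Lamb3, the beta chain of the laminin of stratified epithelia that anchors hemidesmosomes, read 6.88, 6.44 and 7.24 in the EPI OE and 5.83, 5.85 and 5.87 in the MES OE. In the VNO it read 7.68, 7.65 and 7.67 in EPI and 6.51, 6.54 and 6.46 in MES. EPI lay above MES on every array of both tissues, more tightly in the VNO than in the OE, with a log2 difference of 1.16 (SE 0.06, adjusted p = 0.000349) and 1.00 (SE 0.20, adjusted p = 0.0158). The OE call was lost without EPI replicate 3 (0.81) and without any of the 3 MES arrays (adjusted p = 0.0546 to 0.0579), and the deposited values gave 0.43, and 0.85 for the VNO, neither called.

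Lama2, the alpha chain of the laminin around muscle fibres and Schwann cells, read 7.90, 7.64 and 8.27 in the EPI OE and 9.13, 9.13 and 9.16 in the MES OE. In the VNO the EPI arrays read 8.07, 8.09 and 8.01 and the MES arrays 9.25, 9.26 and 9.33. MES was higher on every array, by a log2 difference (EPI minus MES) of -1.20 (SE 0.17, adjusted p = 0.00642) in the OE and -1.23 (SE 0.07, adjusted p = 0.000349) in the VNO. The VNO call was lost after median centring (-0.88). At E11.5 the fractions had differed by -0.09 (SE 0.08, adjusted p = 0.411), with overlapping arrays. By E12.5 they already lay apart without a call, at 8.19 to 8.56 (mean 8.40) in EPI and 9.17 to 9.19 (mean 9.18) in MES.

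Itga11 stayed lower in the EPI OE, at 7.31, 7.29 and 7.14 against 8.68, 8.62 and 8.63 (-1.40, SE 0.09, adjusted p = 0.00195). In the VNO its gap was -0.29 (SE 0.07, adjusted p = 0.0239). Itgb6 kept its epithelial side in the OE, at 6.72, 6.10 and 6.52 against 5.44, 5.52 and 5.41 (0.99, SE 0.17, adjusted p = 0.0103), where leaving out EPI replicate 1 took the call (0.85), as did the deposited values (0.35) and median centring (0.85). In the VNO the fractions were level, at 6.47, 6.63 and 6.61 in EPI and 6.66, 6.46 and 6.57 in MES (0.01, SE 0.09, adjusted p = 0.962).

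Itga9, whose receptor binds tenascin-C and other matrix ligands, was lower in the EPI OE by -0.96 (SE 0.17, adjusted p = 0.0103), a call lost without EPI replicate 2 (-0.79) and after median centring (-0.59). It had leaned the same way, short of the threshold, at E11.5 (-0.74, SE 0.12, adjusted p = 0.0101) and E12.5 (-0.81, SE 0.07, adjusted p = 0.00185). On the deposited values the split at E14.5 was 0 higher and 4 lower for the OE and 0 and 3 for the VNO. Over the 14804 genes tested it was 134 and 954, and 405 and 777. The median of all clusters was -0.33 and -0.24.

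**Figure D3:**
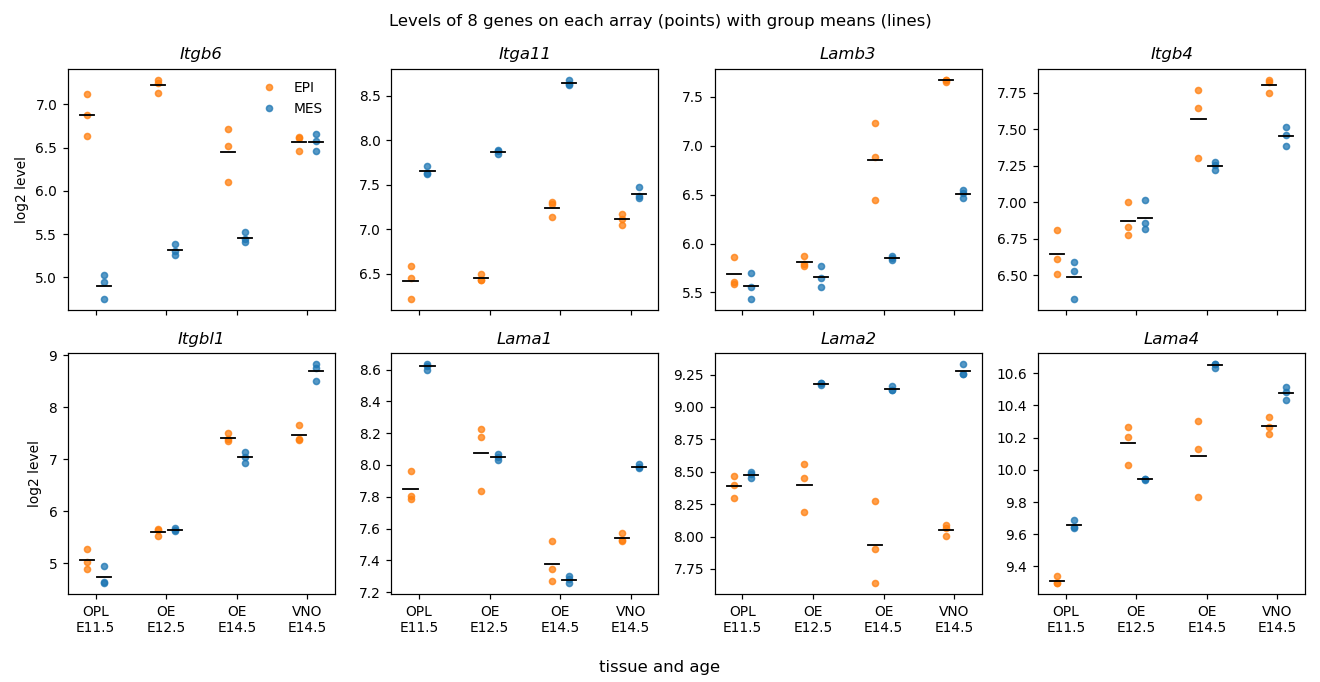
Each point is 1 array and each line the mean of 3, as log2 level (vertical axis, a separate range for each gene, not starting at 0) against tissue and age for 8 genes, with EPI in orange and MES in blue. Lamb3 and Itgb4 climb at E14.5, more in EPI than in MES at the VNO for Lamb3, Itgbl1 climbs in both fractions, Lama1 falls in the MES and Lama2 parts between the fractions.

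From the placode to the E14.5 tissues, a chain of the hemidesmosome laminin and a chain of its receptor, Lamb3 and Itgb4, rose in the EPI fractions. Both were also called higher in the MES VNO than in the MES OPL. In the EPI OE, 4 of 30 genes were called higher than in the OPL (Itgbl1, Lamb3, Itgb4, Itga7) and 1 lower (Itgb3bp), against 9.44% and 1.91% of all genes. In the EPI VNO, 6 were called higher (Itgbl1, Lamb3, Itgb4, Itga2, Lama4, Itgb5) and 1 lower (Itgb3bp), against 10.3% and 2.20%. The median change was 0.34 and 0.41 for the 30 genes and 0.25 and 0.19 for all genes tested.

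Lamb3 stood at 5.87, 5.60 and 5.59 in the EPI OPL, below each E14.5 array given above. Its rise was 1.17 (SE 0.22, adjusted p = 0.0108) to the OE and 1.98 (SE 0.10, adjusted p = 0.000132) to the VNO, the latter 3.95-fold. Itgb4, the beta chain that pairs with Itga6 into the laminin receptor of hemidesmosomes, read 6.61, 6.81 and 6.51 in the OPL, 7.64, 7.30 and 7.77 in the OE and, in the VNO, 7.75, 7.84 and 7.83. All E14.5 arrays were above all OPL arrays, and the rise was 0.93 (SE 0.16, adjusted p = 0.00911) and 1.16 (SE 0.10, adjusted p = 0.000581).

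Itga6 itself differed by 0.35 (SE 0.11, adjusted p = 0.04) in the VNO and was not called. The Itgb4 call in the OE was lost without OPL replicate 3, OE replicate 1 or OE replicate 3 (0.83 to 0.89). Markers of basal stratified epithelium moved with these genes: their summed level on the log2 scale went from 9.71 to 9.88 in the EPI OPL to 11.4 to 12.9 in the OE and 12.3 to 12.4 in the VNO, with 6 and 7 of 8 called higher. Their part in the rise of Lamb3 and Itgb4 was not tested.

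Other receptor chains rose by less in the EPI fractions. Itga2, a collagen receptor of epithelia and platelets, rose by 1.03 (SE 0.09, adjusted p = 0.000497) to the VNO, and Itgb5, which pairs with Itgav for vitronectin, by 0.92 (SE 0.16, adjusted p = 0.00553), a call lost without OPL replicate 3 (0.76) or VNO replicate 3 (0.88) or after median centring (0.89). Itga7, the laminin receptor of muscle, rose by 0.91 (SE 0.15, adjusted p = 0.0076) to the OE, lost without OPL replicate 3, OE replicate 2 or OE replicate 3 (0.84 to 0.85) or after median centring (0.85). In the same comparison 6 of 9 skeletal muscle markers were called higher. Their summed level went from between 8.54 and 8.59 to between 9.84 and 10.1. In the EPI VNO 8 of 9 were called higher, with a summed level between 11.3 and 11.4. Itga7 was not called there, with a mean of 6.29 against 6.40 in the EPI OE. The part of these markers in the change of Itga7 was not tested.

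The leukocyte integrins stayed under the threshold. In the EPI VNO, Itgam changed by 0.67 (SE 0.08, adjusted p = 0.00157), Itgal by 0.61 (SE 0.09, adjusted p = 0.00293) and Itgb2, the beta chain of both, by 0.70 (SE 0.13, adjusted p = 0.00652). These are the adhesion receptors of macrophages and lymphocytes, and 8 of 13 macrophage and leukocyte markers were called higher in that comparison. Itgb2l and Itgae, a further beta chain related to Itgb2 and an alpha chain of intraepithelial lymphocytes, changed by -0.08 (SE 0.08, adjusted p = 0.424) and -0.34 (SE 0.08, adjusted p = 0.0154).

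Itgbl1 gave the largest change of the 30 genes. In EPI it read 5.27, 4.90 and 5.04 in the OPL, 7.39, 7.36 and 7.50 in the OE and, in the VNO, 7.36, 7.39 and 7.65, a rise of 2.35 (SE 0.14, adjusted p = 0.000674) and 2.40 (SE 0.14, adjusted p = 0.000162). In MES it read 4.64, 4.94 and 4.62 in the OPL, 7.05, 6.94 and 7.14 in the OE and, in the VNO, 8.84, 8.50 and 8.75. No E14.5 array of either fraction came down to an E11.5 array, and the rise in MES was 2.31 (SE 0.11, adjusted p = 0.00013) in the OE and 3.96 (SE 0.13, adjusted p = 6.15e-05) in the VNO, 4.95-fold and 15.6-fold. Cartilage markers, 7 of 8 called higher in EPI at both E14.5 tissues and 6 of 8 in MES, rose in the same comparisons, with 1 of the 8 called lower in the MES OE, and their part was not tested.

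Lama4, the alpha chain of vessel and mesenchymal basement membranes, read 9.30, 9.34 and 9.30 in the EPI OPL and 10.27, 10.33 and 10.22 in the EPI VNO (0.96, SE 0.08, adjusted p = 0.000427). In MES it read 9.64, 9.69 and 9.64 in the OPL and 10.63, 10.66 and 10.66 in the OE (0.99, SE 0.04, adjusted p = 9.61e-05). It had come up by E12.5 in EPI, by 0.86 (SE 0.10, adjusted p = 0.0109), just under the threshold. In the EPI VNO 4 of 10 endothelium markers were called higher and in the MES OE 0 of 10. Of 11 mesenchyme markers, 7 were called higher in the EPI VNO and 4 in the MES OE, and their summed level on the log2 scale went from between 13.0 and 13.4 in the EPI OPL to between 14.6 and 14.7 in the EPI VNO. The part of either list in the level of Lama4 was not tested.

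Itgb3bp was the 1 gene of the 30 called lower in EPI at E14.5 than in the OPL. At an unadjusted limma p under 0.05, 3 genes in the OE and 4 in the VNO were lower. In either direction 19 and 25 of the 30 lay under it, against 49.2% and 58.8% of all genes. Itgb3bp read 7.48, 7.70 and 7.82 in the OPL, 6.69, 6.62 and 5.92 in the OE and, in the VNO, 6.32, 6.62 and 6.65. All E14.5 arrays lay below all OPL arrays, by -1.26 (SE 0.23, adjusted p = 0.0105) and -1.13 (SE 0.14, adjusted p = 0.00148), and on the deposited values the VNO difference was -0.89. On those values the split of the EPI VNO comparison was 10 higher and 0 lower, with the median of all clusters 0.31 above 0. Over the 14804 genes tested, 3039 were called higher and 125 lower there.

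Between E11.5 and E12.5 limma called 0 of the 30 genes in EPI, against 1.37% of all genes called higher and 1.84% lower. At an unadjusted limma p under 0.05 lay 10 of the 30, near the 36.7% of all genes. Rank Products called 0 of the 30, and 41 higher and 66 lower over all genes. The largest changes were those of Lama4, of Itgb3bp (-0.83, SE 0.14, adjusted p = 0.0191) and of the beta and gamma chains of the most widespread laminins, Lamb1 (0.61, SE 0.11, adjusted p = 0.0203) and Lamc1 (0.70, SE 0.10, adjusted p = 0.0149). In MES, Itgbl1 was the 1 gene called, higher by 0.91 (SE 0.10, adjusted p = 0.00673), against 1.30% of all genes higher and 0.196% lower. That call was lost without MES OPL replicate 1 or 3 or MES OE replicate 2 (0.86 to 0.90), and the deposited values gave 0.89 and median centring 0.83.

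In the mesenchyme of the OE, Lama4 was called higher and Lama1 lower at E14.5 than at the OPL, and in that of the VNO neither was called. In the MES OE at E14.5, Itgbl1, Lama4 and Itga11 were called higher and Lama1 lower than in the MES OPL (3 higher and 1 lower, against 6.13% and 1.63%). In the MES VNO, Itgbl1, Itgb6, Itgb4 and Lamb3 were called higher and no gene lower (4 and 0, against 7.15% and 2.17%). The median change was 0.29 and 0.25, against 0.01 and 0.03 for all genes.

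Lama1, the alpha chain of the first embryonic basement membranes, read 8.64, 8.62 and 8.60 in the MES OPL, 8.05, 8.07 and 8.03 at E12.5, 7.30, 7.26 and 7.28 in the OE at E14.5 and 7.98, 8.01 and 7.98 in the VNO. The 4 groups did not overlap, with the E12.5 and VNO values next to each other in the middle. Its fall to the E14.5 OE was -1.34 (SE 0.04, adjusted p = 4.30e-05), and to the VNO -0.63 (SE 0.05, adjusted p = 0.000637), which was not called. Itga11 rose in the MES OE by 0.99 (SE 0.05, adjusted p = 0.000145), and this call and that of Lama4 there were lost on the deposited values and after median centring (0.83 and 0.68 on both).

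Lamb1 and Lamc1, which share most laminins with Lama1, Lama2 and Lama4, were not called in the MES OE, at 0.70 (SE 0.04, adjusted p = 0.000245) and 0.71 (SE 0.05, adjusted p = 0.000304). Lama2 differed by 0.66 (SE 0.04, adjusted p = 0.000296) there and by 0.80 (SE 0.06, adjusted p = 0.000385) in the MES VNO, where Lama4 differed by 0.82 (SE 0.05, adjusted p = 0.000343). Lamc3, a gamma chain of nerve and other basement membranes, differed by 0.05 (SE 0.11, adjusted p = 0.753) in the MES OE and 0.35 (SE 0.14, adjusted p = 0.106) in the MES VNO. On the deposited values the split was 1 higher and 1 lower for the MES OE and 3 and 1 for the MES VNO. Median centring gave the same. Over the 14804 genes tested the deposited values gave 749 and 368, and 940 and 501. Centring gave 748 and 370, and 918 and 532.

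In the MES VNO, Itgb6, Itgb4 and Lamb3 were above their MES OPL levels. Of these, Itgb4 was called between EPI and MES at no tissue or age, with means of 7.80 and 7.46 in the VNO. In the MES OE at E14.5 Itgb4 had a mean of 7.25, against 6.49 in the MES OPL, and was not called. Itgb6 went from the MES OPL values given above to 6.66, 6.46 and 6.57, a rise of 1.66 (SE 0.10, adjusted p = 0.000246). Itgb4 read 6.34, 6.59 and 6.53 in the MES OPL and 7.38, 7.52 and 7.46 in the MES VNO (0.97, SE 0.09, adjusted p = 0.000917), and Lamb3 5.43, 5.70 and 5.56 and 6.51, 6.54 and 6.46 (0.94, SE 0.08, adjusted p = 0.000861). Without MES OPL replicate 1 the calls of Itgb4 (0.90) and Lamb3 (0.88) were lost, as was that of Itgb4 on the deposited values (0.89) and after median centring (0.88).

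Epithelium markers rose in the same fraction. Their summed level on the log2 scale lay between 10.8 and 10.9 on the MES OPL arrays, at 12.2 on the MES OE arrays at E14.5 and between 12.6 and 12.7 on the MES VNO arrays, where it reached that of the EPI OPL arrays (12.4 to 12.7), and 9 of 11 were called higher in the MES VNO than in the MES OPL. Neuron markers, 8 of 9 called higher, rose as well. The part of either in the levels of Itgb6, Itgb4 and Lamb3 was not tested.

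Several changes differed between the fractions by the test of the difference itself (EPI change minus MES change, 12 arrays). To the OE, 0 of 30 genes were called above 0 and 3 below, against 5.50% and 2.45% of all genes: Lama2 at -1.11 (SE 0.19, adjusted p = 0.00272), Itgb3bp at -1.02 (SE 0.26, adjusted p = 0.0176) and Itgb6 at -0.99 (SE 0.24, adjusted p = 0.0125). To the VNO, 2 were called above 0 and 4 below, against 7.74% and 4.38%. Above were Lamb3 (1.04, SE 0.13, adjusted p = 0.00023) and Itga11 (0.95, SE 0.13, adjusted p = 0.000397), and below were Itgb6 (-1.97, SE 0.18, adjusted p = 3.97e-05), Itgbl1 (-1.56, SE 0.20, adjusted p = 0.000241), Itgb3bp (-1.17, SE 0.15, adjusted p = 0.000294) and Lama2 (-1.14, SE 0.09, adjusted p = 2.02e-05). Leaving out 1 array took the OE calls of Itgb6 (-0.87 without EPI OPL replicate 3, -0.82 without EPI OE replicate 2) and Itgb3bp (-0.78 without EPI OE replicate 3) and the VNO call of Itga11 (0.85 without EPI OPL replicate 3).

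Lama2 and Itgb6 lay above 0 in MES and below 0 in EPI in both tissues, at -0.45 (SE 0.18, adjusted p = 0.0958) and -0.43 (SE 0.21, adjusted p = 0.144) in the EPI OE and 0.55 (SE 0.09, adjusted p = 0.00576) for Itgb6 in the MES OE, and of these pairwise changes only that of Itgb6 in the MES VNO was called. The median of all genes was 0.21 and 0.16 here. On the deposited values, where that of all clusters was 0.30 and 0.42, the split was 2 above and 1 below for the OE and 9 and 1 for the VNO. After median centring it was 1 and 2, and 4 and 3. The call of Lama2 was lost on both of these scales in both tissues (-0.52 to -0.85), and on the deposited values those of Itgb6 in the OE (-0.85) and of Itgb3bp (-0.86) and Itgbl1 (-0.84) in the VNO were lost too. The calls of Itgb3bp in the OE and of Itgb6, Lamb3 and Itga11 in the VNO were kept on both.

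**Figure D4:**
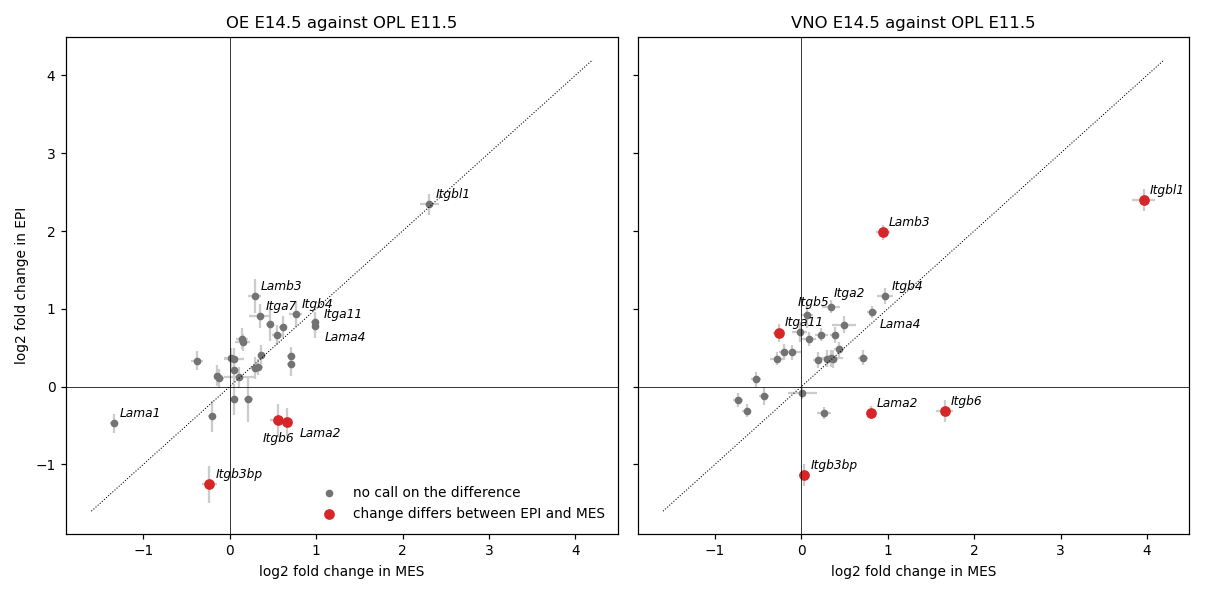
Each point is 1 of the 30 genes, with its log2 fold change from the OPL at E11.5 in MES (horizontal axis) and in EPI (vertical axis) to the OE (left) and the VNO (right) at E14.5, bars for the standard error and red for a called difference between the changes; the dotted line marks equal change. Itgbl1 lies on the line in the OE (2.31 and 2.35) and under it in the VNO (3.96 and 2.40), and Lama2 and Itgb6 lie above 0 in MES and below 0 in EPI in both plots.

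At E14.5 the MES fractions of VNO and OE differed in 3 of the 30 genes. Itgbl1 (1.65, SE 0.11, adjusted p = 0.00281) and Itgb6 (1.10, SE 0.08, adjusted p = 0.00311) were called higher beside the VNO and Itga11 (-1.25, SE 0.06, adjusted p = 0.00157) lower, against 0.669% of all genes higher and 0.844% lower. The arrays behind these values were given above, and the groups did not overlap. Between the EPI fractions limma called 0 of the 30 genes and 0 and 0% of all genes in either direction. At an unadjusted limma p under 0.05 lay 2 of the 30, against 15.3% of all genes. Rank Products called 0 of the 30, and 19 higher and 23 lower over all genes. Lamb3 had the largest change there, at 0.81 (SE 0.21, adjusted p = 0.197), and the replicates of the EPI OE were the most spread of the time course.

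The Dlx5 experiment asked what the loss of Dlx5, a homeobox gene needed for the olfactory system to connect with the brain, does to gene expression in the nasal epithelium. Dlx5 read 10.95, 10.98 and 10.97 on the WT arrays and 10.33, 10.30 and 10.11 on the null arrays, a log2 difference of -0.72 (SE 0.10, adjusted p = 0.117). It was lower on every null array without passing the threshold, and whether its probes lie in the part that the insertion disrupts is not given in the sources used here. Limma called 0 of the 30 genes, against 0% of 14860 genes called higher and 0.00673% (1 gene) lower. At an unadjusted limma p under 0.05 lay 11 of the 30, against 15.6% of all genes. Rank Products called 0 of the 30, and 25 higher and 84 lower over all genes. The smallest adjusted p among the 30 was 0.143.

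The direction was uneven all the same: 23 genes lay above 0 and 7 below (76.7% above, against 56.6% of all genes), with a median of 0.14 against 0.03. On 10 genes every null array was above every WT array, and on 2 below, against 13.2% and 12.6% of all genes. For 3 against 3 arrays, such a separation is p = 0.1 in an exact permutation test, the smallest it allows.

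The largest of the higher values were those of Itgb5 and Itga8, chains of receptors for the RGD motif. Itgb5 read 10.93, 10.61 and 10.75 in WT and 11.69, 11.50 and 11.34 in null (0.74, SE 0.13, adjusted p = 0.159), and Itga8, a receptor for nephronectin, 9.91, 9.91 and 10.24 and 10.76, 10.69 and 10.51 (0.63, SE 0.13, adjusted p = 0.177). Itgav differed by 0.46 (SE 0.12, adjusted p = 0.228) and Itga5 by 0.42 (SE 0.12, adjusted p = 0.255). The null arrays lay above the WT arrays for these 4, while Itga2b and Itgb3, further chains of RGD receptors, stood at 0.10 (SE 0.12, adjusted p = 0.757) and 0.02 (SE 0.14, adjusted p = 0.957).

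Of the hemidesmosome chains, Itgb4 and Lamb3 lay above 0 and Itga6, the partner of Itgb4, below. Itgb4 read 8.71, 8.59 and 8.73 in WT and 8.99, 9.21 and 9.31 in null (0.49, SE 0.11, adjusted p = 0.208), and Lamb3 7.62, 7.52 and 7.44 and 7.97, 7.93 and 7.77 (0.36, SE 0.10, adjusted p = 0.239). Itga6 read 10.54, 10.89 and 11.02 and 10.12, 10.64 and 10.58, with overlapping arrays (-0.37, SE 0.19, adjusted p = 0.432). Lamb1 and Itga3, a laminin receptor of epithelia, differed by 0.38 (SE 0.11, adjusted p = 0.249) and 0.39 (SE 0.14, adjusted p = 0.297), and Itga9 by 0.48 (SE 0.10, adjusted p = 0.196). None of these passed the threshold.

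On the other side were Itgb3bp, at 9.66, 9.63 and 9.67 in WT and 8.97, 9.01 and 9.19 in null (-0.60, SE 0.10, adjusted p = 0.143), and Itgbl1, at 6.86, 7.14 and 7.43 and 6.45, 6.80 and 6.31 (-0.62, SE 0.19, adjusted p = 0.256). Both were lower on every null array. Itga11 (0.43, SE 0.24, adjusted p = 0.46) and Itgb6 (-0.34, SE 0.24, adjusted p = 0.551) overlapped between genotypes, with 1 null array each far from the rest, at 9.03 and 8.66.

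Summed levels of some marker lists lay apart between the genotypes, while limma called 0 genes of any marker list. Those of the glia markers lay between 12.96 and 13.48 on the WT arrays and between 11.95 and 12.26 on the null arrays. Their median log2 difference was -0.08. Epithelium markers lay between 14.39 and 14.43 against 13.64 and 14.36. The sums of the endothelium, leukocyte, platelet, muscle and cartilage markers overlapped. The summed level of the neuron markers lay between 14.8 and 14.9 on the WT arrays and between 13.7 and 14.5 on the null arrays, that of the mesenchyme markers between 14.2 and 14.3 against 14.5 and 14.9, and that of the basal epithelium markers between 11.7 and 11.8 against 12.4 and 13.0. The part of dissection and cell mixture in the differences of the 30 genes cannot be told apart from that of the genotype.

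**Figure D5:**
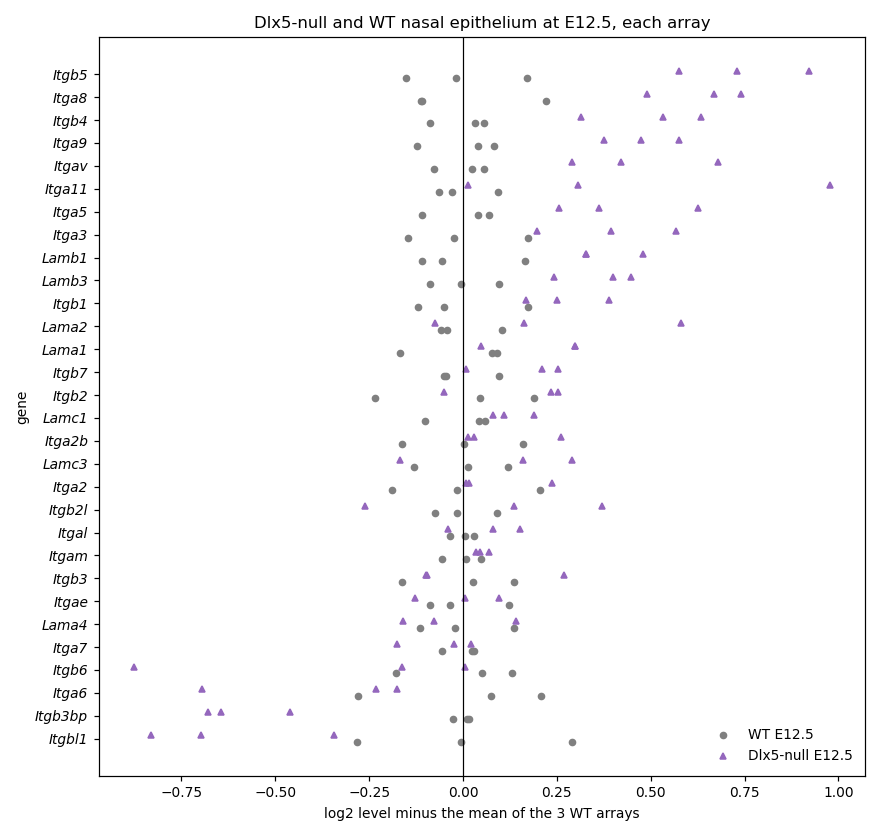
Each row is 1 of the 30 genes, sorted by the difference between genotypes, and each point 1 array at E12.5 (grey circles WT, purple triangles Dlx5-null, 3 of each), as log2 level minus the mean of the WT arrays on the horizontal axis. Itgb5 (0.74) and Itga8 (0.63) head the genes whose null arrays lie to the right of all WT arrays, and Itgb3bp (-0.60) and Itgbl1 (-0.62) lie to the left.

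The genes around the receptors were read from lists of proteins that bind laminins or integrins. Of 20 further integrin ligands, 7 were called higher in the EPI OE at E14.5 than in the OPL and 0 lower, against 9.44% and 1.91% of all genes, and in the EPI VNO 7 higher and 2 lower, against 10.3% and 2.20%. In MES the counts were 7 and 1 for the OE, against 6.13% and 1.63%, and 8 and 2 for the VNO, against 7.15% and 2.17%. The median log2 change of the list was 0.74 and 0.71 in EPI and 0.49 and 0.35 in MES, against 0.25, 0.19, 0.01 and 0.03 for all genes. Ibsp, the bone sialoprotein, rose by 6.13 (SE 0.45, adjusted p = 0.00113) in the EPI OE and by 7.26 (SE 0.10, adjusted p = 1.31e-05) in the MES OE. Postn, periostin, rose by 2.97 (SE 0.31) and 3.21 (SE 0.07), and Tnc, tenascin-C, which Itga9 binds, by 2.47 (SE 0.32) and 2.50 (SE 0.05). Tnc was also lower in EPI than in MES at the OPL, with a log2 difference of -1.35 (SE 0.20, adjusted p = 0.00815), the side on which Itga9 lay.

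Of 24 basement membrane partners, 3 were called higher in the EPI OE, 5 higher and 1 lower in the EPI VNO, 2 higher in the MES OE and 3 higher and 1 lower in the MES VNO. The shares of all genes are those given for the ligands, and 3 of 24 in the EPI OE and 2 of 24 in the MES OE lie near them. Smoc2, a matricellular protein of basement membranes, rose by 1.60 (SE 0.21) in the EPI OE and 2.22 (SE 0.05) in the MES OE, and Col17a1, a hemidesmosome collagen that spans the membrane beside the Itgb4 chain, by 1.86 (SE 0.11, adjusted p = 0.000204) in the EPI VNO. Col4a1 and Col4a2, the main chains of the collagen network that laminins are tied to, were lower in EPI than in MES at E11.5, each with a log2 difference of -1.04. Cd151, a tetraspanin that binds laminin-binding integrins, was higher in EPI at E14.5, by 1.07 (SE 0.10) in the OE and by 1.14 (SE 0.08) in the VNO. Of the 24 partners, 1 was called higher and 3 lower in EPI than in MES in that OE, against 6.50% and 1.39% of all genes. In the VNO 1 was called higher and 0 lower, against 6.72% and 2.02%. The median difference of the partners was -0.17 in the OE and -0.20 in the VNO, against 0.22 and 0.17 for all genes.

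Of 28 adaptors that link integrin tails to actin, at most 2 were called in any comparison. Against the OPL, 1 was called higher in the EPI OE and 2 in the EPI VNO, against 9.44% and 10.3% of all genes. In the MES OE it was 1 higher and 1 lower, against 6.13% and 1.63%, and in the MES VNO 1 higher, against 7.15%. Between the VNO fractions 1 was called higher in EPI, against 6.72%. The called adaptors were Tns2, Tns4 and Fermt1. Tns2, a tensin, rose in both fractions of both E14.5 tissues by 1.01 to 1.19, and Tns4 by 1.16 (SE 0.12) in the EPI VNO. Fermt1, the kindlin of epithelia, fell by 1.12 (SE 0.05) in the MES OE. It was higher in EPI than in MES at the VNO by 0.99 (SE 0.07).

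The genes called in none of the 12 pairwise comparisons of the time course covered the widest used chains. Their largest differences in size there were 0.66 for Itgb1, -0.73 for Itgav, -0.82 for Itga5, 0.70 for Lamb1 and 0.71 for Lamc1. Itga6 and Itga3, laminin receptors of epithelia, reached 0.37 and 0.57. Itga2b and Itgb3, which pair into the platelet fibrinogen receptor, reached 0.53 and -0.53, and Itga8 0.52. Of the leukocyte chains, Itgb2 reached 0.70, Itgam 0.67, Itgal 0.61, Itgb7 0.60, Itgae -0.58 and Itgb2l -0.20, and Lamc3 reached 0.36.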

How the data were processed

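The authors extracted RNA from pooled tissue, depleted ribosomal RNA, hybridized it to the arrays and deposited RMA values of 23339 transcript clusters, in log2 units. The submitters' notes name RMA, with no version, and the mm9 assembly. The methods describe a separate RMA run for each pairwise comparison, and the time-course arrays all lack a value for 101 clusters, the Dlx5 arrays for 7. Array medians differ between groups, so the 24 time-course arrays were quantile-normalized together and the 6 Dlx5 arrays apart. Genes were named by the platform's gene table from clusters with 1 symbol (14996), on the cluster of highest mean where there were several. All 30 genes matched RefSeq.

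Groups were compared with limma 3.58.1 in R 4.3.3 on the arrays of each pair, with Benjamini-Hochberg adjustment over all clusters. Whether changes differ between fractions was tested as an interaction over 12 arrays. The code was tested on simulated data. Rank Products were coded anew, with 100 permutations. Alternatives were the deposited values, their centring on array medians (added after seeing the data), quantile normalization of the compared arrays alone, brighter clusters only, Rank Products, 1 fit over the time course, subtraction of a mesenchymal fraction of 0.15, a replicate block and leaving out each array. Each called gene is named, with array values for the 3 largest changes of a comparison, and up to 3 genes of each partner list. The members and lists were chosen with earlier results of these data known. The files hold no background signal, so no detection limit is given, and the number of arrays limits the precision.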

Additional observations from a re-analysis of the deposited data

Results flagged for a closer look

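The results given here are set apart because an effect differed between tissues or fractions by the test of the difference itself (limma, adjusted over all clusters). Between the MES fractions at E14.5, VNO minus OE, Itga11 was at -1.25, Itgb6 at 1.10 and Itgbl1 at 1.65. For the OE at E14.5 against the E11.5 placode, EPI change minus MES change, Lama2 was at -1.11, Itgb3bp at -1.02 and Itgb6 at -0.99. For the VNO against the same placode, Lama2 was at -1.14, Itgb3bp at -1.17, Itga11 at 0.95, Itgb6 at -1.97, Itgbl1 at -1.56 and Lamb3 at 1.04. All are on the log2 scale, from 3 arrays a group. Leaving out 1 array took the OE calls of Itgb6 (-0.87 without EPI OPL replicate 3, -0.82 without EPI OE replicate 2) and Itgb3bp (-0.78 without EPI OE replicate 3) and the VNO call of Itga11 (0.85 without EPI OPL replicate 3). Groups of 3 are too small for a test of single outlying arrays.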

How the results depend on the processing

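No called gene changed direction under any alternative. Each count here is the number of the 30 genes called, with the reported count in the text above, and the cause of a change was not tested. On the deposited values the counts were 8 (EPI against MES, OPL), 4 (the same at E12.5), 4 (EPI, E12.5 against E11.5), 9 (EPI OE, E14.5 against E11.5), 0 (MES at E12.5), 2 (MES OE) and 10 (EPI change minus MES change, VNO). Over all genes those values called 2610 higher and 53 lower for EPI at E12.5. They called 2073 and 187 for the EPI OE and 213 and 24 for MES at E12.5, with the other comparisons given above. Centring on array medians gave 4 (EPI against MES, E12.5), 3 (OE E14.5), 0 (MES at E12.5) and 2 (MES OE). Over all genes it called 1104 higher and 151 lower between the OE fractions at E14.5 and 173 and 30 in MES at E12.5. Brighter clusters only, which leaves fewer genes to test, gave 1, 1 and 3 between fractions (OPL, OE E12.5, OE E14.5), 2 and 4 in EPI (OE, VNO), 0 in MES at E12.5, 1 in the MES VNO and 3 for the difference of changes to the VNO. Rank Products gave 1, 0 and 0 between fractions (OPL, OE E14.5, VNO), 1 and 2 in EPI (OE, VNO), 0 in MES at E12.5 and 2 and 2 in MES (OE, VNO). Quantile normalization of the compared arrays alone gave 0 in MES at E12.5, and subtracting mesenchyme gave 2 in EPI at E12.5. Leaving out 1 array at a time gave 0 to 2 (EPI at E12.5; 2 without OE replicate 2), 3 to 7 (EPI OE; 3 without OPL replicate 3, 7 without OPL replicate 2), 0 to 1 (MES at E12.5), 2 to 4 (MES VNO; 2 without OPL replicate 1) and 2 to 5 (difference of changes to the OE; 2 without EPI OPL replicate 3, 5 without EPI OPL replicate 1). Same-numbered arrays did not deviate together (correlations of -0.18 to 0.28, with every pair over 0.1 in 0 of 13 comparisons), so the numbers do not pair the samples. With them as a replicate block, 0 genes were called between the MES fractions of VNO and OE at E14.5, where the reported count is 3 (Itgbl1, Itga11 and Itgb6 at adjusted p = 0.0606, 0.07 and 0.0854 in limma), and no other count moved by over 1.5 times. The Dlx5 comparison gave 0 under each alternative run. Members dimmer than the median could not be given a value with brighter clusters only.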
